A study of Homo sapiens with 2 samples.

Results

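Transcripts of 51 genes that drive cells through mitosis were examined in SU-DHL-1 cells in which the homeobox gene HLX, of the NKL class, was targeted by siRNA. SU-DHL-1 is an established cell line from an anaplastic large cell lymphoma (ALCL), a T-cell tumour, with an NPM1-ALK fusion. The genes were chosen by function. They were read on Affymetrix HG-U133 Plus 2.0 arrays by the probe sets that the platform annotation assigns to 1 gene, and a probe set is a group of short probes for one transcript. All 51 had such a probe set, 103 in all of the 54613 that are not controls, and 51 of the 19775 genes with a probe set. One array held cells given the AllStars negative control siRNA (siCTR) and the other array cells given the HLX siRNA (siHLX). Both siRNAs were introduced by electroporation, and the cells were harvested within a day. The study made these arrays to look for genes downstream of HLX. With 1 array per treatment there are no replicates, so no test between the treatments was run. Every difference describes these 2 arrays of 1 cell line.

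Entry into mitosis depends on CDK1, a kinase that works only when bound to cyclin A or cyclin B and after CDC25 phosphatases have removed its inhibitory phosphates. Aurora and Polo-like kinases then build the spindle, kinesin motors and microtubule-bundling proteins shape it, condensin compacts the chromosomes, and kinetochores tie them to microtubules. The spindle checkpoint holds the anaphase-promoting complex (APC/C) back until every chromosome is attached. Most of these genes are transcribed in waves that peak in G2 and mitosis, under the MuvB complex with MYBL2 and FOXM1, so that their transcripts are commonly used as a readout of dividing cells. A culture is a bulk sample, in which fewer cells in mitosis and less RNA per mitotic cell cannot be told apart.

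Relative to the bulk of genes, most mitosis genes were slightly lower on the siHLX array when each was read by its brightest probe set, the one with the highest mean of both arrays. A log2 difference is the siHLX value minus the siCTR value throughout, and a log2 intensity serves to compare the arrays for 1 probe set and not 1 gene with another. Of the 51 genes, 42 were lower and 9 higher, with a median difference of -0.11 and quartiles of -0.20 and -0.04. Among the 12135 genes of the array above the level threshold of 4.865, the median level of all probe sets, 50.1% were lower, and their median was -0.01. All 51 mitosis genes lay above this threshold, 48 of them at a level of 8 or more, where the array scatters less. At that level 41 of 48 mitosis genes were lower (85.4%), against 50.8% of 5742 genes.

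The sizes were small. On the brightest probe sets the most distant member, CDC25A, stood at 0.763 times its control level. No member reached a 2-fold difference in either direction on these, as 0.841% of all genes did, and no member reached 1.5-fold. Among the 5742 genes at a level of 8 or more, 1 was 2-fold higher and 0 were 2-fold lower. Dimmer probe sets above the threshold read 1.866-fold for PLK4, on a probe set close to the threshold, and 1.558-fold for ASPM. A difference of at least 0.2, or 1.149-fold, was used to single out members. On this rule 15 of 51 mitosis genes were lower (29.4%, against 18.5% of all genes) and only PLK1 was higher (1.96%, against 17.5%). Among genes at a level of 8 or more, 9.51% were at least 0.2 lower and 8.19% at least 0.2 higher, where the mitosis genes gave 15 and 0 of 48. The count of 15 rested on the brightest probe sets. When the probe sets of a gene were averaged, 7 of 51 mitosis genes were at least 0.2 lower, against 17.9% of all genes in that setting. That 17.9% covers all levels, whereas 48 of the 51 mitosis genes lay at 8 or more, where fewer genes passed this rule.

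The brightest probe sets and the dimmer ones of the same genes gave different pictures. Of the 46 further probe sets above the threshold, which read 27 of the genes a second time or more often, 23 were lower, 22 higher and 1 equal, with a median of -0.01. Over all genes of the array, 49.7% of such further probe sets were lower. Restricted to a level of 8 or more, 12 of 22 further probe sets of mitosis genes were lower (54.5%), against 52.0% of all genes. The lower values of the mitosis genes were therefore found mainly on the brightest probe sets, and the count by second brightest probe set was 11 lower of 27. With all probe sets of a gene averaged, the brightest included, 39 of 51 mitosis genes were lower, against 50.8% of all genes. Their median was then -0.09. The brightest and the dimmer readings come from the same RNA, and their pooled SD within a mitosis gene was 0.22. Over all genes it was 0.27, and 0.13 for genes with every probe set at a level of 8 or more. The 0.22 is larger than the median difference of -0.11, but it describes single probe sets and not a median over 51 genes.

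All differences are relative to the equal overall brightness that quantile normalisation imposes. Poly-A control transcripts, added before labelling, had a mean log2 difference of -0.29 (SD 0.18, 23 of 24 probe sets lower). Scaled to equal poly-A controls, the median of the mitosis genes was 0.18 and that of all genes 0.28, and 5 of 51 mitosis genes stayed below 0, against 11.2% of all genes. The distance of the mitosis genes to the median of all genes was -0.10 under either scaling. Their direction in absolute terms is thus not settled by these arrays, and the part of the controls in it was not tested. HLX itself read 8.15 on the siCTR array and 7.70 on the siHLX array. The 7 markers of ALCL cells that had been listed, CD30 gene TNFRSF8 and ALK among them, were all above the threshold, as were 2 of 4 B-cell, 1 of 4 myeloid, 3 of 3 erythroid and 3 of 5 epithelial or stromal markers with a probe set. The B-cell markers PAX5 and CD79A and the myeloid marker CSF1R were above it, and MS4A1, CD79B, MPO, CD14 and LYZ were below it. The 3′ to 5′ difference of ACTB and GAPDH, a sign of RNA integrity, shifted by -0.04 and -0.06.

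**Figure D1:**
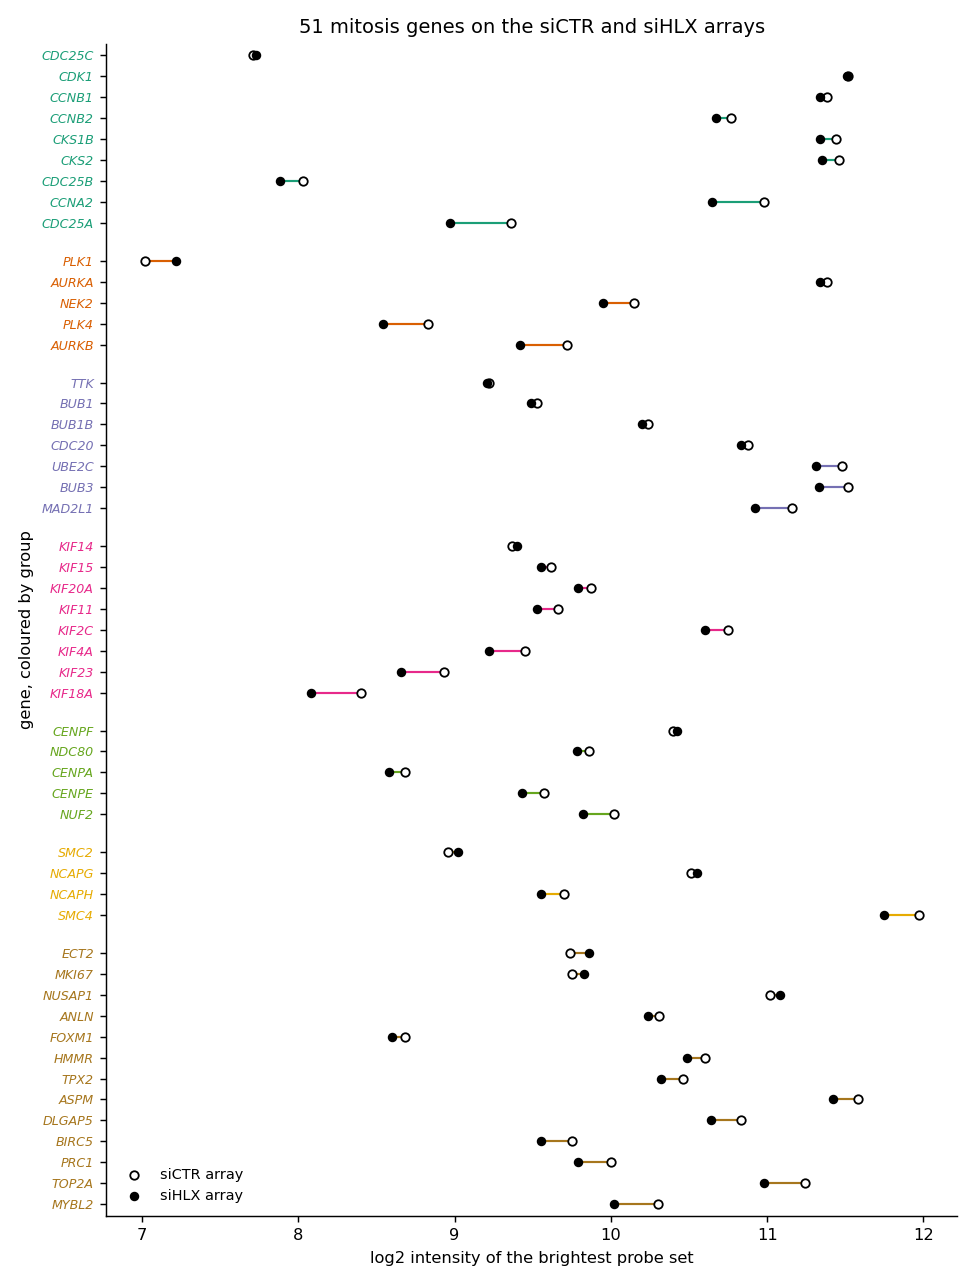
Log2 intensity of the brightest probe set (x axis) of the 51 mitosis genes (y axis, coloured by group) on the siCTR array (open circles) and the siHLX array (filled circles), 1 array each. The filled circle lies to the left of the open one in 42 genes, and the longest lines belong to CDC25A, CCNA2, KIF18A and AURKB.

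Cyclins, CDK1 and its activators had a median of -0.10, with 8 of 9 members lower. CDC25A, the phosphatase that activates CDK2 and CDK1, was the lowest of all members, with 9.36 on the siCTR array and 8.97 on the siHLX array. Its difference was -0.39. Of probe sets of similar level, meaning those that carry 1 gene and lie no more than 0.5 log2 units away in level, 1.24% had a difference as low. The other probe sets of CDC25A read -0.26 and -0.09, so all 3 pointed down. CCNA2, which encodes cyclin A of S and G2 phase, went from 10.98 to 10.65, a difference of -0.33, and its second probe set read -0.18. Of probe sets of similar level, 0.783% were as low as the first. All probe sets of both genes thus pointed the same way.

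The kinase CDK1 and cyclin B1 moved less on their brightest probe sets. CDK1 had 11.52 on the siCTR array and 11.51 on the siHLX array, so its difference was -0.01. Its further probe sets read -0.36, -0.02 and -0.40, so that the size for CDK1 differed between its probe sets, and the cause was not tested. The last of these lay at a lower level, with 6.41 and 6.01. CCNB1, the main mitotic cyclin, went from 11.38 to 11.34, and its second probe set had a difference of 0.07. CDC25C, the phosphatase that acts at mitotic entry, stood at 7.71 and 7.73, with further readings of 0.10 and -0.12. The remaining members, CCNB2, CDC25B and the CDK-binding subunits CKS1B and CKS2, had differences between -0.10 for CCNB2 and -0.15 for CDC25B. CCNB2 also had 2 probe sets under the level threshold, with -0.83 and 0.46, which were not counted.

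In this group the further probe sets leaned the same way as the brightest ones, with 7 of 9 lower and a median of -0.12.

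Mitotic kinases had the most negative median of the brightest probe sets, -0.20, and the widest spread. AURKB, the kinase of the chromosomal passenger complex, went from 9.72 to 9.42, a difference of -0.30. PLK4, which starts centriole duplication, went from 8.83 to 8.54, a difference of -0.29. NEK2, a kinase of centrosome separation, read 10.15 and 9.95, a difference of -0.20. Each of these 3 genes was contradicted by a dimmer probe set, with 0.15 for AURKB, 0.16 for NEK2, and 0.19 and 0.90 for PLK4. The reading of 0.90 came from a probe set close to the level threshold, with 4.78 on the siCTR array and 5.68 on the siHLX array.

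AURKA, the kinase of spindle poles, hardly differed on its 2 brighter probe sets. It read 11.38 with siCTR and 11.34 with siHLX, and its other probe sets gave 0.00 and, at the lowest level, -0.42. PLK1, the kinase of mitotic entry and spindle assembly, was the only member at least 0.2 higher. It had 7.02 on the siCTR array and 7.22 on the siHLX array on its only probe set, and 20.9% of probe sets of similar level had a difference as high. Of the 6 further probe sets of the kinases, 4 were higher, 1 was lower and 1 equal. When the probe sets of each gene were averaged, the median of the kinases was -0.02 in place of -0.20.

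**Figure D2:**
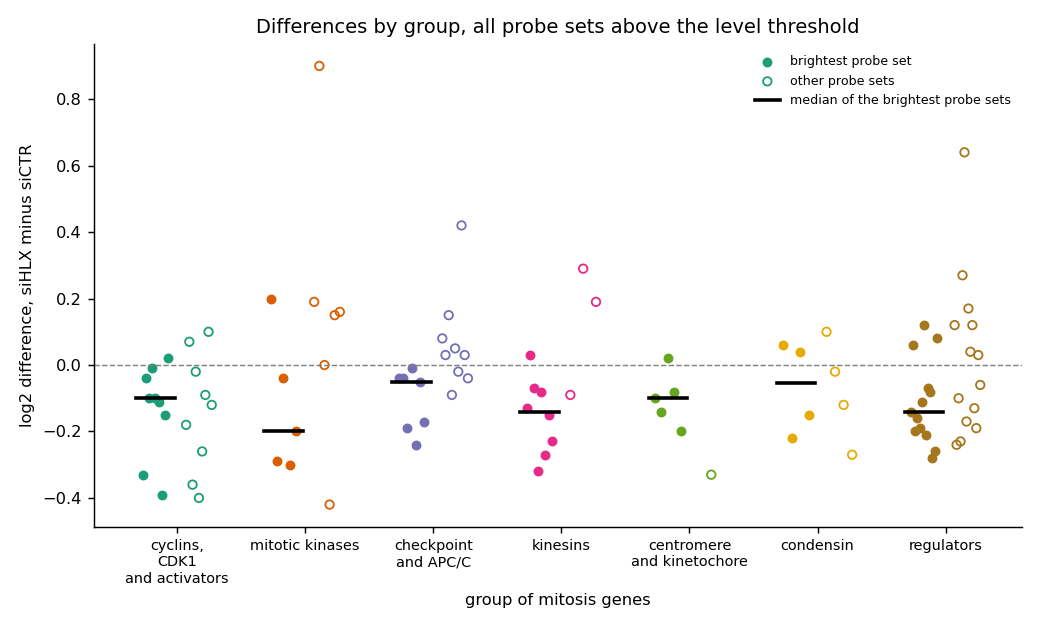
Log2 difference, siHLX minus siCTR array (y axis) of the 97 probe sets of mitosis genes above the level threshold, by group (x axis); filled circles are the brightest probe set of each gene, open circles its other probe sets, and bars the median of the filled circles. The bars lie between -0.20 for mitotic kinases and -0.05 for checkpoint and APC/C genes, whereas open circles lie on both sides of 0 in all groups but the centromere and kinetochore genes, which have 1.

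Checkpoint and APC/C genes were all lower on their brightest probe sets, 7 of 7, but mostly by little, with a median of -0.05. MAD2L1, the checkpoint protein that captures CDC20, went from 11.16 to 10.92, a difference of -0.24 that 1.52% of probe sets of similar level reached. Its other probe sets read 0.03 and -0.04. BUB3, a scaffold of the checkpoint, read 11.52 and 11.33 on its brightest probe set. The further probe sets of BUB3 above the threshold ranged from -0.09 to 0.42.

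The checkpoint kinases were close to 0. TTK (MPS1) read 9.22 and 9.21, BUB1 9.53 and 9.49, and BUB1B, the BUBR1 protein that inhibits the APC/C, had a difference of -0.04. BUB1 had 3 further probe sets above the threshold, all of them higher, by up to 0.15. CDC20, the activator of the APC/C, had -0.05 and UBE2C, its ubiquitin-conjugating enzyme, -0.17. Among the 9 further probe sets of the group, 3 were lower and 6 higher.

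Kinesins had a median of -0.14, with 7 of 8 members lower. KIF18A, the motor that damps chromosome movement at the metaphase plate, went from 8.40 to 8.08, a difference of -0.32. KIF23, a motor of the central spindle, read 8.93 and 8.66 (-0.27), and its dimmer probe set was higher by 0.29. KIF4A, a chromokinesin, went from 9.45 to 9.22 (-0.23). These were the members of the group at least 0.2 lower, and KIF18A and KIF4A had no further probe set.

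KIF2C, the microtubule depolymerase at centromeres, read 10.75 and 10.60 on one probe set, a difference of -0.15, and had 0.19 on the other. KIF14, a motor of cytokinesis, was the only kinesin gene of the list that was higher, with 9.37 and 9.40. KIF11, the bipolar motor Eg5, and KIF15 and KIF20A had differences from -0.13 to -0.07.

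Centromere and kinetochore genes had a median of -0.10, with 4 of 5 lower. NUF2 went from 10.02 to 9.82, a difference of -0.20, and its partner NDC80 in the microtubule-binding complex from 9.86 to 9.78. CENPA, the histone H3 variant of centromeres, had a difference of -0.10, and CENPE, the kinesin of the kinetochore, one of -0.14. CENPF was the exception, with 10.40 and 10.42. Its second probe set read -0.33, and the only probe set below the threshold 0.10.

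Condensin genes were split, with 2 lower and 2 higher and a median of -0.06. SMC4, an ATPase subunit of the complex, went from 11.97 to 11.75 (-0.22) and had 3 probe sets that all read lower. Its partner SMC2 was higher on both probe sets, with 8.96 and 9.02 on the brighter one. NCAPG read 10.51 and 10.55 on the brighter probe set and -0.27 as a difference on the other, and NCAPH had -0.15. Partner subunits of one complex therefore lay on both sides of 0.

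The regulators, 13 genes of spindle assembly, cytokinesis, transcription and chromosome structure, had a median of -0.14, with 10 lower. MYBL2, the MuvB partner known as B-MYB, went from 10.30 to 10.02 on its only probe set, a difference of -0.28 that 2.87% of probe sets of similar level reached. FOXM1, the other activating partner, differed less, with 8.68 and 8.60. Its probe set, like that of CENPA, carries the suffix of sets that can cross-react with other transcripts.

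TOP2A, the topoisomerase that disentangles chromosomes, read 11.24 and 10.98, a difference of -0.26 that 1.07% of probe sets of similar level reached. The second probe set of TOP2A, at nearly the same brightness, was higher by 0.12. MKI67, the gene of the proliferation marker Ki-67, gave 9.75 and 9.83 on the brightest of its 4 probe sets, and the others ranged from -0.19 to 0.03. A lower reading of this marker was thus not seen on the brightest probe set, and its mean over all 4 was -0.04 (SD 0.12).

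BIRC5 (survivin), a passenger protein that also restrains apoptosis, had 4 probe sets that all read lower, with 9.75 and 9.55 on the brightest and a mean of -0.19 (SD 0.06). PRC1, which bundles antiparallel microtubules, had a difference of -0.21, with 9.79 on the siHLX array and 10.0 on the siCTR array. TPX2, the activator of AURKA, read 10.46 and 10.32. DLGAP5, ASPM, HMMR and ANLN, proteins of spindle and cleavage furrow, had differences from -0.19 to -0.07. Of these, ASPM had 11.58 and 11.42 on its brightest probe set, but 0.27 and 0.64 as differences on dimmer ones. HMMR was lower on both of its probe sets.

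ECT2, the activator of RhoA at the cleavage furrow, was the highest regulator, with 9.74 and 9.86 and a difference of 0.12. Its second probe set read 0.17. NUSAP1, a microtubule-binding protein, was higher on both probe sets, by 0.06 and 0.12.

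Repeat readings above the threshold existed for 27 genes. All probe sets were lower for 6 of them, CCNA2, CDK1, CDC25A, SMC4, BIRC5 and HMMR, and all were higher for 3, SMC2, NUSAP1 and ECT2. The other 18 had probe sets on both sides of 0 or at 0. Taking the brightest and the second brightest, 7 genes were lower on both, 4 higher on both, 11 lower on the brightest and higher on the second, and 4 the reverse. Across these 27 genes the correlation of both readings was r = -0.13, and across the 5869 genes of the array with such a pair r = 0.09. With both probe sets at a level of 8 or more, r was -0.37 across 19 mitosis genes and 0.20 across 1853 genes of the array. These correlations are across genes, which share the 2 arrays and are not independent. For comparison, of the 24 genes with a single probe set above the threshold, 23 were lower (95.8%), with PLK1 as the exception and a median of -0.12. Of all genes read by their brightest probe set, 50.1% were lower. The share among all genes with a single probe set, and the sign agreement between probe sets of all genes, were not counted. How unusual these counts are on the array is therefore not known.

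**Figure D3:**
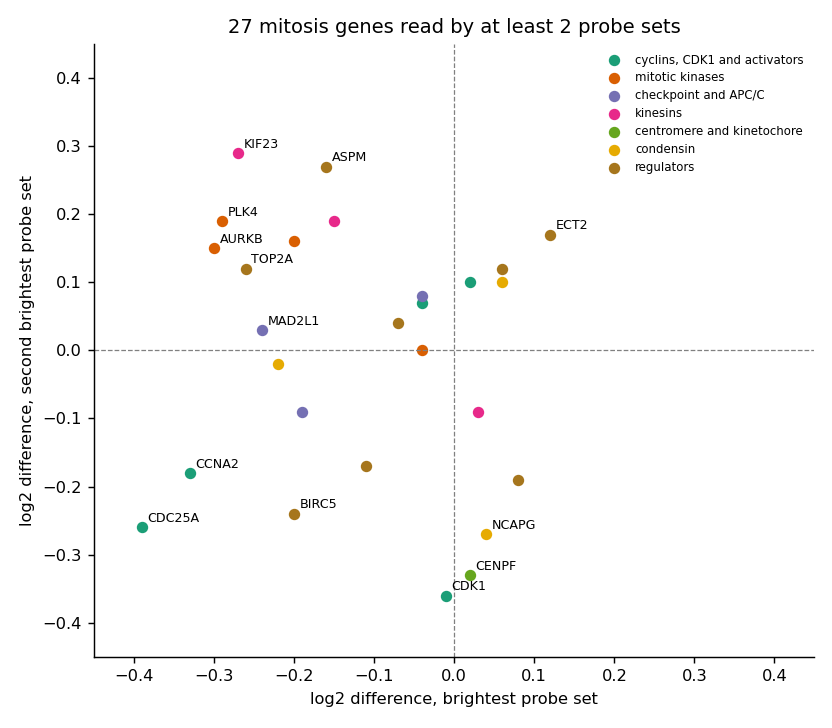
Log2 difference, siHLX minus siCTR array on the second brightest probe set (y axis) against that on the brightest (x axis) for the 27 mitosis genes with 2 or more probe sets above the level threshold, coloured by group. CCNA2, CDC25A and BIRC5 lie low on both, whereas 11 genes, KIF23 and PLK4 among them, lie in the upper left with probe sets of opposite sign.

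The groups overlapped widely. Their medians ran from -0.20 for mitotic kinases to -0.05 for checkpoint and APC/C genes, and in each of the 7 groups the values spanned more than that distance. No group was separate from the others, and no test between groups was run because genes of 1 array pair are not replicates.

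Further mitosis genes, 98 from a list that holds none of the 51, lay closer to 0. Of 93 with a probe set, all above the threshold, 53 were lower and 37 higher, with a median of -0.03, and 17.2% were at least 0.2 lower. HASPIN, the histone H3 kinase that places the passenger complex, was the lowest at -0.67, with 7.47 and 6.80. The cohesin protector SGO1 and the kinetochore gene CENPQ followed at -0.47, though SGO1 had 0.09 on another probe set. HAUS8, a subunit of the augmin complex, read -0.44 and SPAG5 (astrin) -0.30. At the other end NSL1, a kinetochore subunit, read 0.23 on the brightest of 4 probe sets and down to -0.19 on the others.

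A list of 6 genes held kinases and a phosphatase that act against CDK1 (WEE1, PKMYT1, CDKN3) and the Greatwall axis (MASTL, ENSA, ARPP19), which restrains the phosphatase that reverses CDK1 phosphorylation and so favours mitosis. Of these 6 genes, 5 were higher, WEE1 and ARPP19 by only 0.03, with a median of 0.07. Of all genes above the threshold, 5756 of 12135 were higher. PKMYT1, which phosphorylates and inhibits CDK1, read 7.72 and 7.93, and MASTL, the Greatwall kinase, 7.97 and 8.12. WEE1, the nuclear kinase that inhibits CDK1, was higher by 0.03 and by 0.22 on its 2 probe sets. CDKN3, a phosphatase that acts on CDK1, was the exception at -0.06, and dimmer probe sets of ARPP19 and ENSA reached -0.44 and -0.19. No test was run on this list.

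Subunits of the other mitotic machines were mixed, where 50.1% of all genes above the threshold were lower. For the APC/C and its partners 8 of 16 were lower, with CDC27 (-0.23) and CDC23 (-0.22) at one end and ANAPC13 (0.17) and ANAPC4 (0.18) at the other. Other probe sets of CDC27 and CDC23 were higher, by up to 0.35 and 0.31. Further kinetochore and centromere genes had a median of -0.03 (21 of 33 lower), from -0.47 for CENPQ, followed by DSN1 at -0.39, to 0.15 for PMF1 and 0.23 for NSL1. Passenger complex and cohesion genes had a median of 0.03 (6 of 13 lower), and the securin gene PTTG1 (0.16) and the cohesin gene STAG2 (0.11) were the highest of them, though STAG2 had -0.22 on another probe set. Other condensin subunits had a median of -0.10 (3 of 4 lower, NCAPH2 lowest at -0.20 with further probe sets up to 0.18) and other kinesins one of -0.07 (3 of 5 lower, from -0.16 for KIF18B to 0.10 for KIF2A). Spindle and cytokinesis genes had a median of -0.08 (11 of 16 lower). Within augmin, HAUS1 and HAUS6 were both at 0.16, opposite to HAUS8, and HAUS6 had -0.10 on another probe set.

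S phase genes, which are transcribed in an earlier wave, had a median of -0.06, with 26 of 41 lower (63.4%, against 50.1% of all genes). At least 0.2 lower were 12.2%, against 18.5% of all genes and 9.51% of those at a level of 8 or more. POLA2 and PRIM2, subunits of the polymerase that primes DNA synthesis, were the lowest at -0.35 and -0.34, and PRIM1, of the same complex, was the highest at 0.22, followed by the clamp loader gene RFC1 at 0.17. POLA2 had 0.51 on another probe set. Factors that act at cell cycle promoters had a median of -0.01, with 12 of 23 lower (52.2%), close to the share of all genes. Among them the MuvB subunits LIN9 and LIN52 were the lowest, at -0.53 and -0.40, and the second probe set of LIN52 read -0.39. The other MuvB subunits listed were higher, LIN37 by 0.05, RBBP4 by 0.10 and LIN54, close to the level threshold, by 0.13. LIN37 had -0.70 on its other probe set, and RBBP4 was higher on all 6 of its probe sets. MuvB subunits therefore lay on both sides of 0. The repressor gene E2F7 was the highest at 0.41, with 0.06 on its other probe set, and the pocket protein gene RBL2 followed at 0.19. LIN9 went from 7.86 to 7.33 on its only probe set above the threshold.

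**Figure D4:**
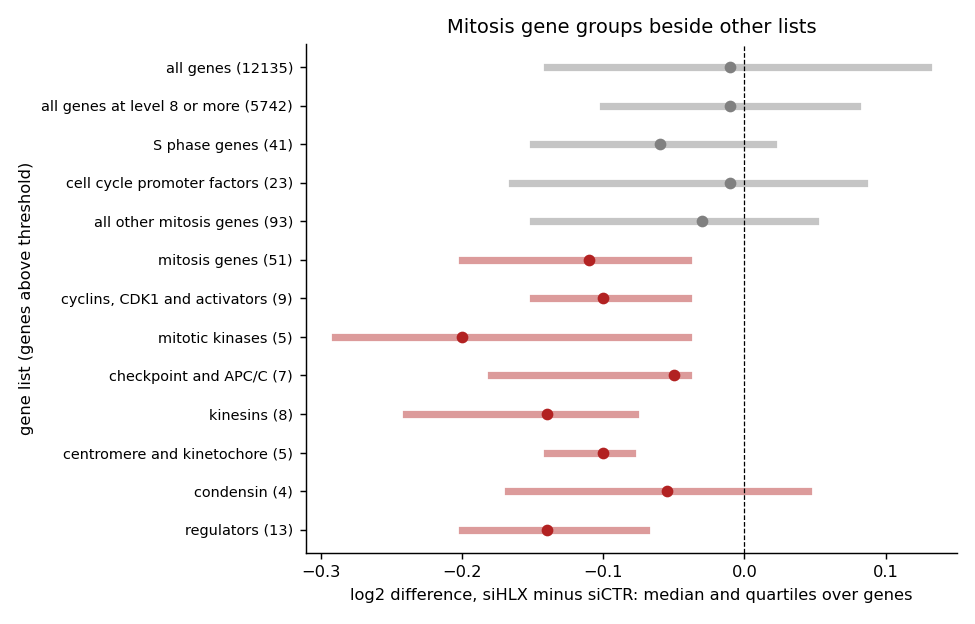
Median (points) and quartiles (bars) over genes of the log2 difference, siHLX minus siCTR array (x axis) for the mitosis genes and their 7 groups (red) and for other gene lists (grey), with the number of genes above the level threshold in parentheses (y axis). The mitosis genes at -0.11 lie left of the S phase genes at -0.06 and of all genes at -0.01, and the bars overlap.

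The promoters of the mitosis genes share sequence elements that were not used to choose them. The cell cycle genes homology region (CHR), bound by MuvB, was searched as TTTGAA, with the palindrome TTTAAA as a variant, and the CCAAT box, bound by NF-Y, as CCAAT, each on both strands. Windows of 300 bases, 250 before and 50 after a transcription start, came from RefSeq on GRCh38.p14, in which 44 of the 51 genes had 57 windows. AURKA, BIRC5, BUB3, FOXM1, TPX2, TTK and UBE2C were not in this table. Promoters of 5 genes are shown to place the elements beside the values above: 4 with a CHR shortly before the start and CDC25A, the lowest member, without one. Each gives the 150 bases before a start, with the CHR, the CCAAT box (on the other strand read as ATTGG) and the E2F element TTTGGCGC in capitals.
CCNB2, plus strand, chr15:59104996-59105145: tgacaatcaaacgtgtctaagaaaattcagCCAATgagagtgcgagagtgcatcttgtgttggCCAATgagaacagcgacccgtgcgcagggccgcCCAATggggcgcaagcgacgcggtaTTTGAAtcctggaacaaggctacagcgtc
CDC25C, minus strand, chr5:138331805-138331954: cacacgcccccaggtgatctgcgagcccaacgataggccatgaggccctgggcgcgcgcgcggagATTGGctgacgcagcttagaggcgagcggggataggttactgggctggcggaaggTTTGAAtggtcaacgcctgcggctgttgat
PLK1, plus strand, chr16:23678739-23678888: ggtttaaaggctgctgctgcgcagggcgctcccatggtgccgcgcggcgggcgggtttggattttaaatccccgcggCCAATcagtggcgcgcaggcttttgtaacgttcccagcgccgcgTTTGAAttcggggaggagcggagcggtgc
KIF4A, plus strand, chrX:70289954-70290103: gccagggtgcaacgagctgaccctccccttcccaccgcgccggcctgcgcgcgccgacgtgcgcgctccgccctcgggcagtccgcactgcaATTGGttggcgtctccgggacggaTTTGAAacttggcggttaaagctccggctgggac
CDC25A, minus strand, chr3:48188418-48188567: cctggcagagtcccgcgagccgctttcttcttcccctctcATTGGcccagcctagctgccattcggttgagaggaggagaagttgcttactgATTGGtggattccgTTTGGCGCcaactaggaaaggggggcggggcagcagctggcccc

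In CCNB2, the CHR began 29 bases before the start and CCAAT boxes 54, 87 and 120 bases before it. The CHR of PLK1 began 29 bases, that of CDC25C 30 bases and that of KIF4A 34 bases before the start. Each had 1 CCAAT box farther out, 73, 85 and 58 bases before the start. For a gene with several windows, the one with the most CHR matches that began within 50 bases before the start was shown. In another window of CDC25C, from another start, the CHR began 43 bases after that start. CDC25A had CCAAT boxes that began 58 and 110 bases and an E2F element 44 bases before the start. These are matches of letters and do not show that a factor was bound in SU-DHL-1 cells.

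The CHR was found in 61.4% of the windows of mitosis genes, against 12.4% of the 22198 windows of protein-coding genes. It lay wholly within the 50 bases before the start in 29.8% of windows, against 1.76%. The CCAAT box was in 64.9%, against 34.7%, and both elements together were in 43.9%, against 4.97%. The variant TTTAAA was in 26.3% and 10.2%. Of the E2F elements, site A (TTTCCCGC) was in 1.75% against 1.99% and site B (TTTGGCGC) in 5.26% against 0.815%. TAATTA, a core bound by many homeodomain proteins, was in 1 of the 57 windows (1.75%), that of SMC4, against 3.39%.

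Members with and without a CHR, here TTTGAA on either side of the start, both had medians below 0, and no test between them was run. Of the 32 genes with a CHR in any window, 23 were lower on the siHLX array and 9 of them at least 0.2 lower, with a median of -0.10 and a range from -0.32 to 0.20. All 12 genes without TTTGAA were lower, 5 of them at least 0.2 lower, with a median of -0.15 and a range from -0.39 to -0.04. Among these 12, CCNB1, KIF20A, KIF2C, CENPE, NCAPH and CDC25B carried the variant TTTAAA. All 9 higher members thus had TTTGAA, but KIF14, NUSAP1 and CENPF only after the start. Of 17 genes with a CHR wholly within the 50 bases before the start, 13 were lower, and of 27 without, 22. The ranges of genes with and without TTTGAA in any window overlapped from -0.32 to -0.04. CCNB2, CDC25C, PLK1 and KIF4A, which are alike in the CHR shown above, had differences of -0.10, 0.02, 0.20 and -0.23. Genes with a CCAAT box had a median of -0.11 and those without -0.08.

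**Figure D5:**
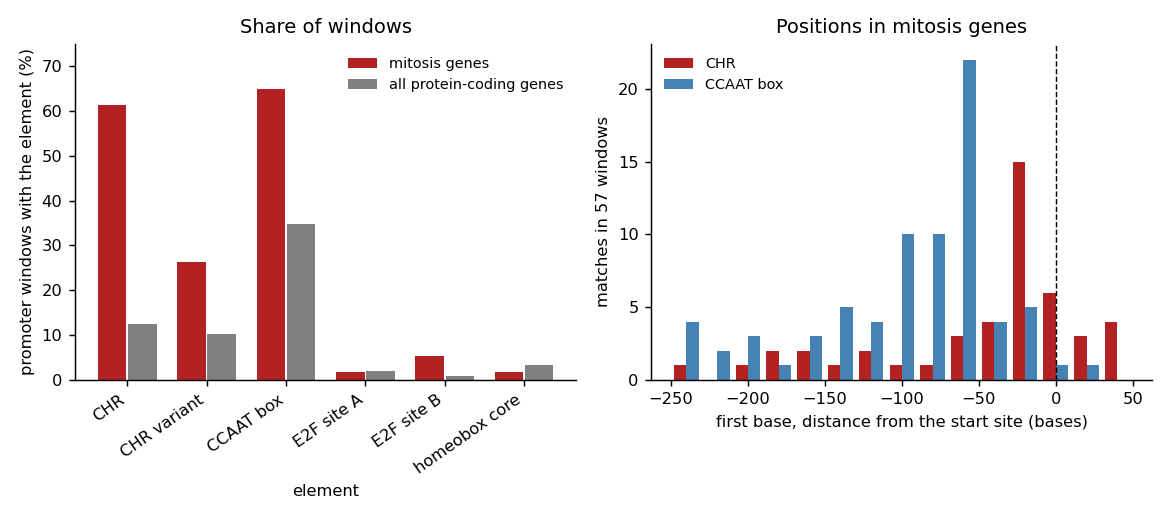
Left, percentage of promoter windows (y axis) that hold each element (x axis) for 57 windows of mitosis genes (red) and 22198 windows of protein-coding genes (grey). Right, number of matches (y axis) by distance of the first base from the transcription start (x axis, bases) in the windows of mitosis genes; CHR matches pile up within the 50 bases before the start, and most CCAAT boxes begin farther upstream.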

How the data were processed

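RNA of SU-DHL-1 cells was profiled on 2 arrays, siCTR and siHLX, grouped by the treatment in the sample labels. Per probe set, the authors deposited 1 log2 intensity for each array, made by RMA background correction and quantile normalisation (RMA, limma and affy are named in the submitters' notes; their versions: not given in the sources used here). Division by the sample mean, which the methods describe, was not applied to these values. After quantile normalisation both arrays have the same distribution, so a shift shared by most transcripts is not visible. The number of arrays limits the precision.

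A gene was read by its brightest probe set and counted when its mean level was at or above the median of all probe sets that are not controls, 4.865. Of these probe sets 41091 carried 1 gene; 1 that a member shared with another gene was not used. Values on both arrays were given for members with a difference of at least 0.2 either way, for named core regulators, for the highest and lowest member of each group, and for members whose probe sets above the threshold opposed each other by more than 0.2 in all. Of other lists, the highest and lowest genes were named. The members, groups, further gene lists and settings were chosen with earlier results of these data known. Alternatives were equal array medians, a lowess correction (fraction 0.2) for level, scaling to poly-A controls, the mean of all probe sets, probe sets without the suffix _s_at, _x_at or _a_at, all levels kept, a cut at the 75th percentile, and a 1.5-fold limit. The second brightest probe set was added after values had been seen. Steps were tested on simulated data. Python 3.11.15, pandas 2.3.3 and statsmodels 0.14.6 were used.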

Additional observations from a re-analysis of the deposited data

How the results depend on the processing

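Equal array medians, the lowess correction, no level threshold and the threshold at the 75th percentile left all 7 group medians, the median of all mitosis genes and their counts of lower genes, of genes at least 0.2 lower and of genes past 2-fold within 0.1 log2 units or 1.5 times. On the brightest probe sets the 1.5-fold limit gave 0 members, as the 2-fold limit did. No paired analysis was possible because each treatment had 1 array.

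Scaled to equal poly-A controls, the median of the mitosis genes was 0.18, 5 were lower and 0 at least 0.2 lower, against 11.2% and 3.85% of all genes. The group medians were then 0.19 for cyclins, CDK1 and activators, 0.0892 for mitotic kinases, 0.24 for checkpoint and APC/C, 0.15 for kinesins, 0.19 for centromere and kinetochore, 0.23 for condensin and 0.15 for regulators. On the second brightest probe set of 27 genes, the median was 0.04, 11 were lower and 5 at least 0.2 lower, against 49.8% and 21.7% of all genes, with group medians of 0.16 for mitotic kinases, 0.19 for kinesins, -0.33 for centromere and kinetochore (1 gene) and 0.08 for regulators. This setting holds fewer genes by construction. With the mean of all probe sets, 7 members were at least 0.2 lower, under the 17.9% of all genes, and the kinases had -0.02. The share of members at least 0.2 lower thus exceeded that of all genes on the brightest probe sets, but not on the second brightest or the mean. These all-gene shares cover all levels. On the brightest probe sets 18.5% of genes passed at all levels and 9.51% at a level of 8 or more. Poly-A scaling adds the same amount to every difference, so its count cannot decide this. The distance to the median of all genes stayed at -0.10 under it. Without probe sets of suffix _s_at, _x_at or _a_at, the condensin median was -0.19. The cause of these shifts was not tested. The size of single differences is limited by the spread between probe sets of a gene, and the direction by the absence of a second array per treatment.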
